A study of Mus musculus with 283 samples.

Results

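TC1 is a mouse lung tumour line, and the 5 TC1 tumours described here were set against the mean of 10 other tumour families across every measured gene with a single symbol. The members were taken from the sample titles, as the arrays that name both TC1 and tumour, which gave 5 of 283 arrays in the series and 5 of its 77 tumours. The other 72 tumours form 10 families once the 4 B16 stocks are averaged as 1 family and TRAMPC1 and TRAMPC2 as another. RNA was read on Affymetrix mouse exon arrays, and every level below is a log2 value of the robust multi-array average (RMA), so a difference of 1 is a factor of 2.

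The TC1 tumours came from animals 19, 20, 22, 23 and 24, female C57Bl6j mice injected under the skin of the back with the 1 TC1 line. They were set against B16 (melanoma, 20 tumours), LL2 (lung, 5), MC38 (colon, 8) and EL4 (lymphoma, 5), which also grew under the skin of female C57Bl6j hosts. The other families were TRAMP-C (prostate, 10 tumours) in male C57Bl6j hosts and PAN02 (pancreas, 4 tumours) grown orthotopically in C57Bl6j females. Female BALB/c hosts carried 4T1 (mammary), CT26 (colon) and Renca (kidney), with 5 tumours each, and female DBA/2J hosts carried P815 (mastocytoma, 5 tumours). None of the hosts is given a genetic change or a treatment in the labels. Draining nodes and spleens of the same TC1 animals (5 each) are used only for levels, and a TC1 culture array was not analysed here.

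As background, TC1 cells were derived from lung epithelial cells of a C57BL/6 mouse and transformed with the papillomavirus genes E6 and E7 and an activated RAS gene. E6 directs the tumour suppressor p53 to degradation, and E7 binds RB, the brake on E2F transcription factors, and releases it from E2F. RAS drives the MAPK cascade, which switches on growth factor ligands and their feedback inhibitors. The line is widely used to test vaccines against the viral proteins, which are foreign to the mouse.

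The TC1 tumours were close to each other. Pearson's correlation over all 17831 probe sets, not only those of single-symbol genes, was between 0.968 and 0.978 within the group. With any other tumour it was at most 0.947. These are descriptions across probe sets, which are not independent replicates. The array medians of the TC1 tumours, over the same probe sets, lay between 5.36 and 5.40, inside the range of 5.22 to 5.53 over all tumours. The TC1 tumours carry sample numbers from 190 to 202, and what that number stands for is not stated. The tumours hold host cells as well as tumour cells, and in such bulk RNA fewer cells of a type and less RNA per cell cannot be told apart.

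Of 13746 genes tested, 610 (4.44%) were called, by a Benjamini-Hochberg adjusted p under 0.05 in limma and a difference of at least 1. They comprised 441 genes higher in TC1 (3.21%) and 169 lower (1.23%), against a median difference of -0.04 over all tested genes. In 118 genes (0.858%) every TC1 tumour lay above every one of the 72 other tumours, and 103 of these were among the genes called higher. The opposite, every TC1 tumour below every other, held for 2 genes (0.0145%), Mkrn1 and Ezr, of which Ezr is separated by less than the rounding of the values. The error in this fit is the spread between tumours of a model. With the family means as units instead, so that the spread was that between families, 31 genes were called higher (0.226%) and 0 lower (0%). At an unadjusted p under 0.05 in limma 124 of the 13746 genes were lower, 23 of them by at least 1. Such a threshold is also passed by chance, so these 124 are not read as a result. All 31 were among the 441. Whether a named gene was called in this way is given below for the genes the results turn on.

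The pair of markers named for the line stood far above the other tumours. Neto2, an auxiliary subunit of kainate-type glutamate receptors (chr8:85636718-85700952, GRCm38.p6), had levels of 8.75, 8.28, 8.93, 9.16 and 9.07 in the TC1 tumours of animals 19, 20, 22, 23 and 24, against a lowest, median and highest level of 1.97, 3.42 and 5.94 in the other tumours. The groups did not overlap, and the next family, B16, averaged 4.58 ± 0.70 (SD). The difference was 5.70 ± 0.20 (standard error, as for every difference below; limma adjusted p = 1.72e-35), and Neto2 was also called with family means as units (adjusted p = 0.00622).

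Crabp1, a cytosolic protein that binds retinoic acid (chr9:54764748-54773110), reached 12.28, 12.46, 12.41, 12.27 and 12.20 in the TC1 tumours, against 4.22, 5.77 and 9.39 as the lowest, median and highest level in the other tumours. TC1 was again above all others, but here the other families were spread widely, from 4T1 at 9.07 ± 0.33 (SD, n = 5) down to B16 at 4.92. The difference was 5.40 ± 0.36 (adjusted p = 5.73e-21), and with family means as units it was not called (adjusted p = 0.405). In the draining nodes of the TC1 animals Crabp1 averaged 4.85 ± 0.32, against 4.59 ± 0.14 in nodes of tumour-free C57Bl6j females (SD, n = 5 each). Neto2 averaged 3.47 ± 0.44 in the TC1 nodes and 3.19 ± 0.34 in the tumour-free nodes. Both genes were thus far lower in the nodes than in the tumours of the same animals, and no test was made across tissues. In cultures of the other lines Crabp1 reached at most 9.52, in TRAMPC2, and Neto2 at most 6.73, in B16F10nci.

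Few relatives of the markers were called. Of 16 tested genes of the retinoid pathway, 2 were called higher, Crabp1 and Rdh10, and none lower (median -0.03), beside 3.21% higher over all genes. As Crabp1 is itself a marker, the call among its relatives is Rdh10 alone. Rdh10, which makes the retinaldehyde from which retinoic acid is formed, averaged 8.24 ± 0.26 (SD, n = 5) in TC1 tumours, 1.59 ± 0.14 above the other families (adjusted p = 4.94e-15). Crabp2, the second cellular retinoic acid binding protein, averaged 6.09 in TC1 tumours and 6.02 over the other families (difference 0.07 ± 0.31, adjusted p = 0.908). Of 5 tested kainate receptor and NETO genes only Neto2 was called. The receptor subunit Grik2 averaged 2.85 in TC1 tumours, a low level on these arrays, and Grik5 averaged 5.36 in TC1 tumours against 5.35 over the other families.

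**Figure D1:**
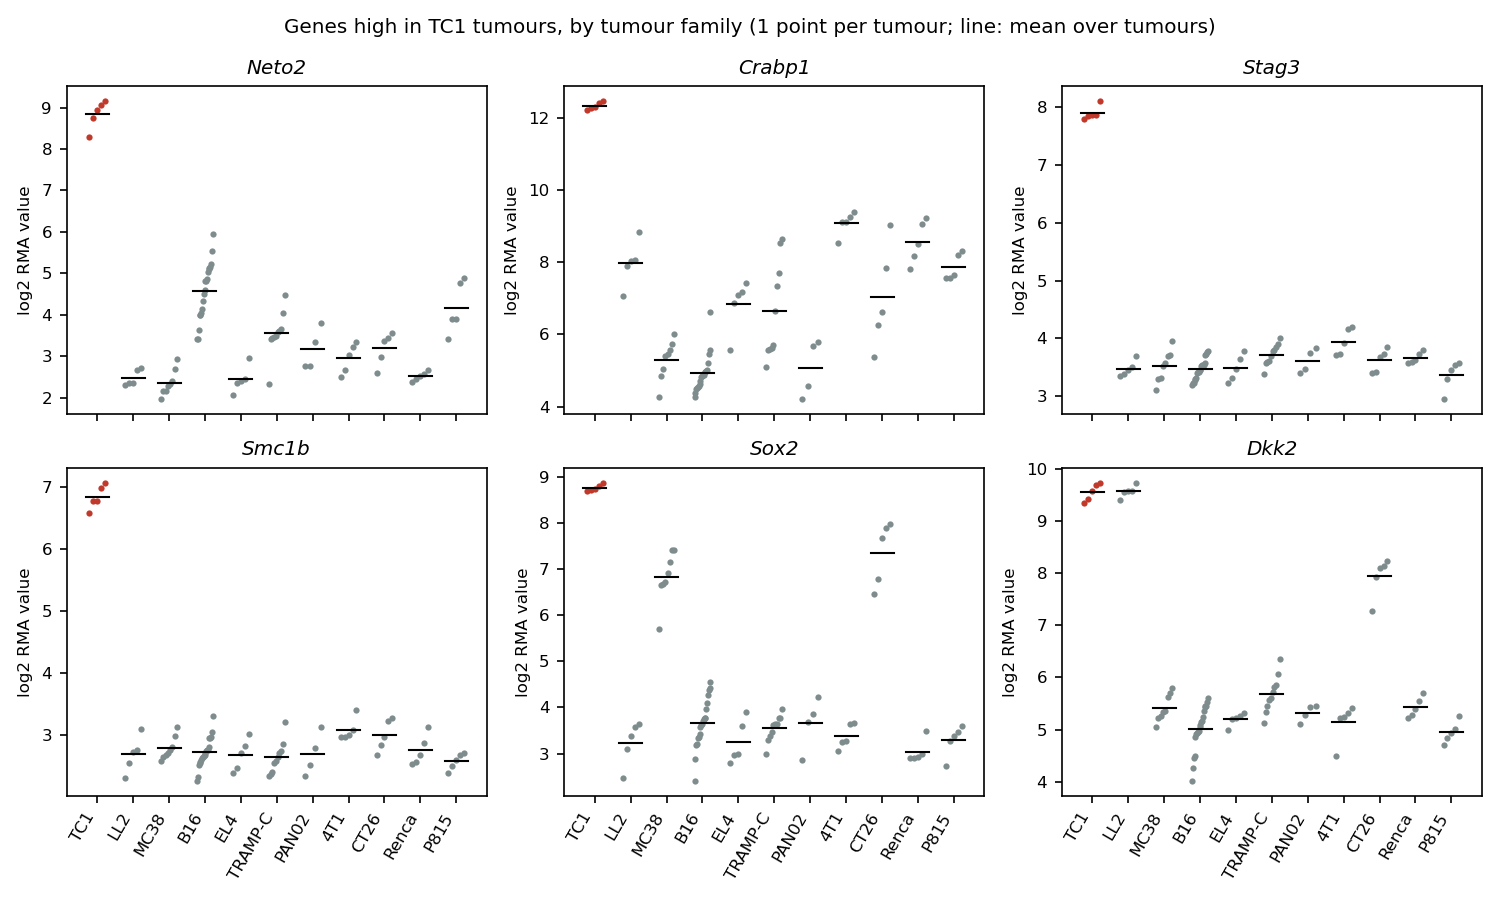
Levels (y axes, log2 RMA value) of 6 genes by tumour family (x axis), with 1 point per tumour, TC1 in red and a line at each family's mean. Stag3 and Smc1b are high in the 5 TC1 tumours and low in the other 72, while Sox2 is also raised in CT26 and MC38, and Dkk2 in LL2 and CT26.

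The widest gaps between TC1 and all other tumours belonged to a pair of meiotic genes. Cohesin is the ring that holds sister chromatids together. Its subunits Stag1, Stag2, Smc1a, Smc3 and Rad21 serve dividing body cells, while Stag3, Smc1b, Rec8 and Rad21l replace some of them in germ cells. As background, E2F6, a repressor of the E2F family, keeps Stag3 and Smc1b silent in mouse somatic cells, and human papillomavirus-positive tumours have been reported to express meiotic genes that include STAG3, SMC1B and SYCP2. The RefSeq promoters of both genes, from 250 bases before to 50 bases after an annotated transcript start, are shown because these genes separate TC1 from every other tumour, and capitals mark the E2F-type motif TTCCCGC.
Stag3 (GRCm38.p6, chr5:138280259-138280558, plus strand): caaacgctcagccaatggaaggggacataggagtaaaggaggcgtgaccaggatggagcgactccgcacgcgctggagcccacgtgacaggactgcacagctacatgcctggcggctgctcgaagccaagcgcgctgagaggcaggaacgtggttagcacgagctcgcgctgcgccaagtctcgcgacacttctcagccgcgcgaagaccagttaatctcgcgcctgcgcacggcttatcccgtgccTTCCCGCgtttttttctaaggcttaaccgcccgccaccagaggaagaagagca
Smc1b (GRCm38.p6, chr15:85131908-85132207, minus strand): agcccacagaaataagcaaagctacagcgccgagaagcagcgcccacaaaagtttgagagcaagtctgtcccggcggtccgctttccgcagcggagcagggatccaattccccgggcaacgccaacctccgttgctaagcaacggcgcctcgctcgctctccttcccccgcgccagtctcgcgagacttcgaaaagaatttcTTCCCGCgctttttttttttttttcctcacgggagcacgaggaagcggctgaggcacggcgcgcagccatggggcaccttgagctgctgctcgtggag
The start used for Stag3 is that of a transcript inside the annotated gene, downstream of the gene's first base, and no other Stag3 start was searched. From the starts used, the motif begins at position -3 for Stag3 and at -48 for Smc1b. Searched on both strands, TTCCCGC was present in 4.60% of 32851 RefSeq promoters of this length, in 6.98% of those of tested genes and in 7.61% of those of genes called higher in TC1. The E-box CACGTG, the other motif searched, was present once in the Stag3 promoter, not in the Smc1b promoter, and in 7.15% of all promoters. These matches describe the letters only.

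Stag3 (gene at chr5:138272514-138312397) had levels of 7.86, 7.79, 8.10, 7.85 and 7.84 in the TC1 tumours, against 2.96, 3.57 and 4.19 as the lowest, median and highest level in the others. Smc1b (gene at chr15:85064689-85131957) had levels of 6.77, 6.78, 6.99, 7.07 and 6.59 in the TC1 tumours, against 2.27, 2.71 and 3.41 in the others. The gap between the lowest TC1 tumour and the highest other tumour was 3.60 for Stag3 and 3.19 for Smc1b, and no other family stood out for either gene. The differences were 4.30 ± 0.09 for Stag3 (adjusted p = 1.06e-48) and 4.07 ± 0.12 for Smc1b (adjusted p = 1.92e-41). Both remained called with family means as units (adjusted p = 1.29e-06 for each). Both genes were tested only because TC1 tumours exceeded the filter on low values (above 4.3 in at least 4 tumours), as did 6 tested genes in all, so a difference was built into their selection. Among cultures of the other lines Stag3 reached at most 4.17 and Smc1b at most 4.06.

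The rest of the cohesin and meiotic genes, listed after these values were seen, were mostly not called. Of 8 tested cohesin subunits, 2 were called higher, Stag3 and Smc1b themselves, beside 3.21% over all genes. As both prompted the list and passed the filter through TC1 alone, these 2 calls add nothing to it. The other 6 were not called. The somatic subunits differed by 0.38 ± 0.10 (Rad21), 0.46 ± 0.11 (Smc3), 0.51 ± 0.09 (Smc1a), 0.54 ± 0.15 (Stag2) and 0.63 ± 0.16 (Stag1), all below the threshold of 1, and the meiotic kleisin Rec8 differed by -0.04 ± 0.11. Of 12 measured proteins of the meiotic chromosome axis, synapsis and recombination, 7 were too low to test. Among the 5 tested, Syce2 of the synaptonemal complex was called higher, at 9.46 ± 0.12 (SD, n = 5) in TC1 tumours, but P815 averaged 9.30. Sycp1 was called lower, at 1.69 in TC1 tumours against 3.14 over the other families, with the highest family mean in CT26 at 5.37, and TC1 lay near the bottom of the scale. Sycp2 was not measured. E2f6 itself averaged 6.91 in TC1 tumours and 5.84 over the other families (1.07 ± 0.20, adjusted p = 1.14e-05). Of its partners in the repressor complex, Mga differed by 0.91 ± 0.10, L3mbtl2 by -0.46 ± 0.10, Max by -0.43 ± 0.10 and Pcgf6 by -0.36 ± 0.15, and none was called. Of this group E2f6 was the only call (1 of 5), and it was not called against the C57Bl6j female subcutaneous families alone, without EL4 and P815, or with family means as units.

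Transcription factors, secreted proteins and signalling genes made up the other 11 of the 15 genes farthest above the other families. Sox2, a factor of stem cells and of the developing airway (chr3:34649995-34652461), had levels of 8.87, 8.70, 8.80, 8.73 and 8.71 in TC1 tumours, against 2.41, 3.63 and 7.97 as the lowest, median and highest level in the others. All TC1 tumours lay above all others, but CT26 averaged 7.35 ± 0.69 (SD, n = 5), and the difference of 4.64 ± 0.21 (adjusted p = 1.09e-29) was not called with family means as units. Tafa1, a secreted brain-type protein, averaged 9.36 ± 0.05 (SD, n = 5) in TC1 tumours and reached at most 7.14 elsewhere (difference 4.74 ± 0.22), and was called with family means as units too (adjusted p = 0.038).

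Itgbl1, an integrin beta-like secreted protein, differed by 4.37 ± 0.20, with CT26 the next family at 7.99 against 9.53 in TC1 tumours. Grem1, which blocks bone morphogenetic proteins, averaged 9.62 ± 0.13 in TC1 tumours and 5.88 over the other families. Stc1, the hormone stanniocalcin, averaged 8.58 ± 0.28 and 4.88. Mgp, an inhibitor of tissue calcification, averaged 10.89 ± 0.32 in TC1 tumours, but other tumours reached the same level, with PAN02 at 10.14. Gap43, a growth cone protein of neurons, averaged 9.06 ± 0.19 in TC1 tumours and 5.62 over the other families. For Grem1, Stc1 and Gap43 no other tumour came up to the lowest TC1 tumour.

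The cyclic nucleotide phosphodiesterases Pde1a and Pde3b were also in this group. Pde1a averaged 7.30 ± 0.39 in TC1 tumours and at most 4.44 in any other family, TRAMP-C (difference 3.59 ± 0.16, adjusted p = 6.63e-30, and 0.00566 with family means as units). Pde3b averaged 8.73 ± 0.12 in TC1 tumours, above LL2 at 7.20. It was also well measured in the draining nodes of the TC1 animals (7.21 ± 0.34) and in tumour-free nodes (7.40 ± 0.49). Gpr149, an orphan receptor, and Nrn1, a neuritin, were among the 10 genes with the widest gaps, at 6.99 ± 0.09 and 6.91 ± 0.29 in TC1 tumours with LL2 as the next family at 5.45 and 5.09.

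Dkk2, a secreted antagonist of WNT signalling, was as high in LL2. It had levels of 9.34, 9.42, 9.69, 9.73 and 9.57 in TC1 tumours and averaged 9.57 ± 0.11 in LL2 tumours (SD, n = 5), and the difference of 3.58 ± 0.15 is from the mean of all families. Against LL2 alone the difference was -0.02 (adjusted p = 0.981). Of 19 tested WNT antagonists and feedback genes, 2 were called higher, Dkk2 and Apcdd1, beside 3.21% over all genes. The list's median was -0.10. Apcdd1 averaged 7.26 in TC1 tumours, below LL2 at 9.37.

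Ptgs2, the inducible cyclooxygenase that starts prostaglandin synthesis, had levels of 9.57, 9.21, 9.51, 9.54 and 9.16 in TC1 tumours, against 3.12, 5.63 and 9.45 as the lowest, median and highest level in the others. The ranges overlapped at the top, where TRAMP-C was the next family at 7.96 ± 0.64 (SD, n = 10), and the difference was 3.43 ± 0.26 (adjusted p = 9.17e-18). With family means as units Ptgs2 was not called. Of 14 measured prostanoid enzymes and receptors, listed after the values were seen, 2 were called higher, beside 3.21% over all genes. The second was Ptgfr, the receptor of prostaglandin F, at 6.20 ± 0.09 in TC1 tumours against 4.68 over the other families, which was also called with family means as units (adjusted p = 0.00566). Ptges, the inducible prostaglandin E synthase, differed by 0.99 ± 0.22 and so missed the threshold on size. Ptges averaged 6.40 in TC1 tumours and 6.77 in LL2.

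The genes whose group means ran most like the markers' over the 15 tumour groups were taken by Pearson's r, as a description. For Neto2 they were Dach1 (0.929), Bpgm (0.918), Pgf (0.897), Cdh6 (0.872) and Kdm6a (0.870). For Crabp1 they were Npl (0.877), Galnt1 (0.867), Atg9b (0.858), Mmd (0.843) and C1qtnf12 (0.841). For both markers the single TC1 point lies far from the rest, and each r leans on it. Pgf, a ligand of the vascular growth factor receptor Flt1, averaged 7.42 ± 0.43 in TC1 tumours and at most 5.88 in another family. Npl, which cleaves sialic acid, averaged 8.28 ± 0.06 in TC1 tumours, above Renca at 7.04.

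Lung epithelial genes were not higher in TC1 tumours. Of 13 tested markers of lung epithelium, 0 were called in either direction (median -0.09, range -0.43 to 0.60; background 4.44%), and Nkx2-1 was not measured. Sftpc, a surfactant protein of alveolar cells, averaged 3.44 ± 0.07 in TC1 tumours and 3.69 over the other families, and the secretoglobin Scgb1a1 of airway club cells averaged 2.76, too low to test. Of 13 general epithelial genes, 3 were called lower, beside 1.23% of all genes, and none higher (median -0.46). The keratin Krt18 averaged 4.27 ± 0.29 in TC1 tumours against 6.10 over the other families (-1.84 ± 0.29, adjusted p = 4.75e-07), and Krt8 averaged 5.68 against 7.03. The adhesion protein Epcam differed by -1.10 ± 0.39, and its call was lost when the tumour of animal 19, 23 or 24 was left out (range -1.22 to -1.04). It was also lost without 4T1 or without P815. The reference includes carcinomas such as 4T1, at 9.66 for Krt18. Against the 4 C57Bl6j female subcutaneous families, 1 of the 13 was called lower, Krt18 (background 1.41%), and the list's median was -0.02.

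Genes of the mesenchymal state were often higher in TC1. Of 13 tested, 6 were called higher and none lower, with a median of 0.95, beside 3.21% higher over all genes. With family means as units none of the 6 was called. Prrx1, a transcription factor of connective tissue precursors, had levels of 9.27, 9.56, 9.45, 9.83 and 9.54 in TC1 tumours, against 3.83, 6.62 and 9.55 as the lowest, median and highest level in the others (2.43 ± 0.19, adjusted p = 2.37e-17). TC1 overlapped there with CT26 (9.27) and LL2 (9.21), the families next to it. The repressors Snai2 (8.26 ± 0.11 in TC1 tumours, difference 1.93 ± 0.22) and Zeb1 (7.83 ± 0.07, difference 1.23 ± 0.13), which shut off epithelial genes, and N-cadherin, Cdh2 (7.24 ± 0.18, difference 1.78 ± 0.15), were also called. Vimentin (Vim) differed by 1.12 ± 0.10 and Twist2 by 1.07 ± 0.14, but without EL4 and P815, the families from blood cells, these were 0.93 and 0.95 and no longer called. That left 4 of the 13 higher (background 2.84%). The call of Vim was also lost without EL4 alone, and that of Twist2 without B16. Cdh1, E-cadherin, averaged 4.85 in TC1 tumours and 5.56 over the other families and was not called.

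Fibroblast and matrix genes gave 5 higher and 0 lower of 17 tested (median 0.55), beside 3.21% higher over all genes, and with family means as units none of the 5 was called. The receptor Pdgfra had levels of 8.53, 8.64, 8.29, 8.71 and 8.48 in TC1 tumours, and no other tumour exceeded 7.45 (2.71 ± 0.16, adjusted p = 8.48e-24). The gelatinase Mmp2 averaged 8.70 ± 0.17 in TC1 tumours against 6.47 over the other families, and the surface protein Thy1 averaged 9.50 ± 0.24, below EL4 at 10.49. The matrix proteins Postn (1.31 ± 0.37) and Col6a3 (1.28 ± 0.15) were also called, with TRAMP-C above TC1 for Postn and MC38 for Col6a3. Host fibroblasts and TC1 cells could both express these genes, and their shares were not tested. Among 12 transcription factors and signals of lung mesenchyme (median 0.30), Tbx5 (1.29 ± 0.13) and Tbx4 (1.01 ± 0.14) were called higher, beside 3.21% over all genes. Tbx5 was above the filter in TC1 tumours alone, so its call adds nothing to the list. For the same reason Tbx5 was not tested when the tumour of animal 19, 22, 23 or 24 was left out. The call of Tbx4 was lost without the tumour of animal 19, 20 or 22 (range 0.91 to 1.15) and without any 1 of 4T1, CT26, EL4, MC38, P815, Renca and TRAMP-C. Tbx4 averaged 5.84 in TC1 tumours and 6.57 in B16.

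**Figure D2:**
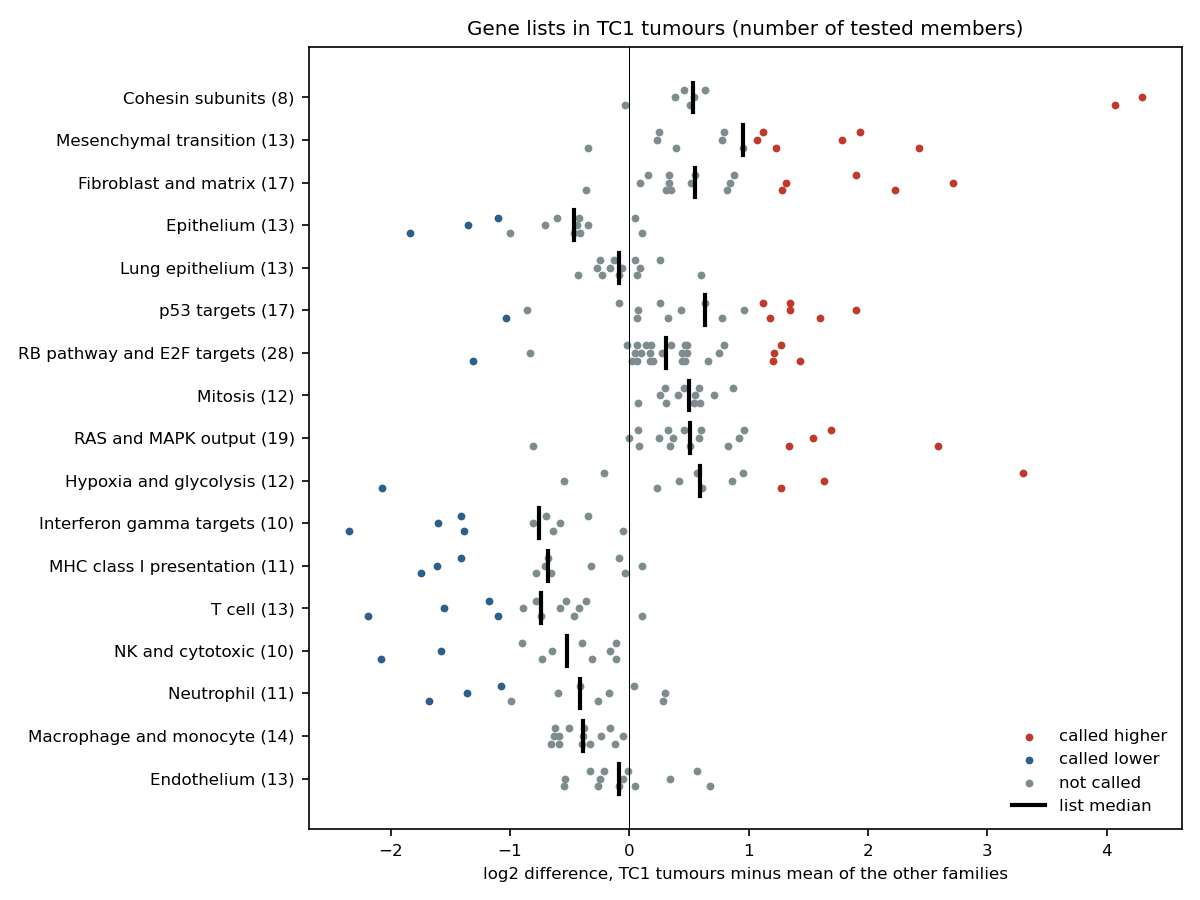
Log2 difference of TC1 tumours minus the mean of the other families (x axis) for the tested members of 17 gene lists (y axis, number tested in brackets), with called members in colour and a bar at each list's median. Members of the mesenchymal and p53 lists lie mostly right of 0 and those of the interferon gamma, T cell and NK lists mostly left of it.

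More targets of p53 were higher than lower. Of 17 tested, 6 were called higher and 1 lower, beside 3.21% higher and 1.23% lower over all genes. The median was 0.63, against -0.04 over all genes. Against LL2 alone, 3 of the 17 were called higher and 0 lower, with a median of 0.16, beside 3.19% higher over all genes. The mean over the list ran from 6.63 to 6.79 in TC1 tumours and from 5.46 to 6.44 in the other tumours. Cdkn1a, the p21 inhibitor of cyclin-dependent kinases, had levels of 9.26, 9.47, 8.90, 9.08 and 9.09 in TC1 tumours, against 5.27, 7.90 and 9.30 as the lowest, median and highest level in the others (1.60 ± 0.20, adjusted p = 8.96e-10). The receptor Eda2r averaged 6.44 ± 0.29 in TC1 tumours against 4.53 over the other families, with no overlap, and Mdm2, the ligase that degrades p53, averaged 8.84 ± 0.13 against 7.65, also with no overlap. Btg2 (1.35 ± 0.16), Plk2 (1.35 ± 0.18) and the death receptor Tnfrsf10b (1.12 ± 0.14) made up the 6, with Tnfrsf10b at 0.90 and not called without EL4 and P815, or without P815 alone. The death receptor Fas differed by -1.03 ± 0.23 and lost its call without the tumour of animal 23 or 24 (range -1.07 to -0.96), and without any 1 of EL4, MC38, P815, PAN02 and TRAMP-C. With family means as units, none of the 17 was called. The p53 gene itself, Trp53, was not measured.

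Among 28 tested genes of the RB pathway and E2F targets, 4 were called higher and 1 lower (median 0.31). Over all genes the shares were 3.21% higher and 1.23% lower. Those higher were Ccne2, a cyclin induced by E2F (1.43 ± 0.23), and the CDK inhibitors Cdkn2a (1.27 ± 0.14), Cdkn2b (1.21 ± 0.15) and Cdkn2c (1.20 ± 0.19). Cdkn2a, which encodes the inhibitor p16, had levels of 7.31, 6.97, 6.63, 7.15 and 6.94 in TC1 tumours, against 5.72 over the other families. TRAMP-C was the one family with as high a mean, at 7.06 ± 0.34 (SD, n = 10). Cyclin D2, Ccnd2, was lower in TC1 (7.27 against 8.58, difference -1.31 ± 0.13). Replication genes were not called, as with Mcm2 at 0.06 ± 0.10. Of 12 mitosis genes none was called, although all 12 were above 0 (median 0.50), from Aurkb at 0.07 to Cdc20 at 0.87.

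RAS and MAPK output genes gave 4 higher and 0 lower of 19 tested (median 0.51), beside 3.21% higher over all genes, and with family means as units none of the 4 was called. The list mean ran from 7.13 to 7.26 in TC1 tumours and from 5.67 to 7.11 in the others, so the groups were only narrowly apart. Against LL2 alone, 2 of the 19 were called higher and 1 lower, beside 3.19% higher and 1.91% lower over all genes. The list's median against LL2 was 0.11, beside -0.03 over all genes. Epiregulin, Ereg, a ligand of the epidermal growth factor receptor, had levels of 7.08, 7.20, 7.31, 7.49 and 7.40 in TC1 tumours, against 2.93, 4.31 and 7.62 as the lowest, median and highest level in the others (2.59 ± 0.20, adjusted p = 1.43e-17). A second ligand of this receptor, Hbegf, averaged 7.63 ± 0.15 in TC1 tumours against 6.09 over the other families, and the membrane protein Emp1 averaged 8.55 against 7.22. Spred1, a feedback inhibitor of RAS, averaged 9.02 ± 0.18 in TC1 tumours against 7.32 and overlapped with no other tumour. The phosphatase Dusp6, a common readout of the cascade, differed by 0.46 ± 0.13 and was not called. Of 8 immediate early genes, which also respond to tissue handling, Jun was called higher (1.31 ± 0.16), beside 3.21% over all genes. All 8 were above 0 (median 0.36), whereas 55.9% of all tested genes were below 0. Against the matched-host families 3 were called higher, beside 3.80% of all genes. The mean over these 8 ran from 6.24 to 6.56 in TC1 tumours and from 5.27 to 6.31 in the others, and 71 of the 72 others lay below the lowest TC1 tumour. The part of the immediate early genes in the result for the RAS and MAPK genes was not tested.

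Of 12 hypoxia and glycolysis genes, 3 were called higher and 1 lower, beside 3.21% higher and 1.23% lower over all genes. Adrenomedullin, Adm, a vasodilator peptide, had levels of 7.56, 7.07, 8.07, 7.81 and 7.41 in TC1 tumours, above the highest other tumour at 6.80 (3.30 ± 0.23, adjusted p = 3.29e-20), and was called with family means as units (adjusted p = 0.038). The glucose transporter Slc2a1 (1.63 ± 0.16) and Ankrd37 (1.27 ± 0.14) were the other higher members. Egln3, an oxygen sensor that hypoxia induces in many cells, went the other way: 4.62, 3.60, 4.65, 4.77 and 4.57 in TC1 tumours against a mean of 6.51 over the other families (-2.07 ± 0.28, adjusted p = 1.21e-08). Car9 and Vegfa differed by -0.55 and 0.23 and were not called. Among 8 imprinted growth genes Grb10 (1.46 ± 0.14) and Dlk1 (1.42 ± 0.15) were called higher, beside the same 3.21%. Of 31 Hox genes Hoxb2 (1.82 ± 0.25) and Hoxb3 (1.25 ± 0.12) were higher and Hoxa5 was lower (-1.57 ± 0.23), in which TC1 was the lowest of the 11 families. These are 3 calls of 31, beside 4.44% called over all genes.

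Interferon, antigen presentation and lymphocyte genes included members lower in TC1. The interferon gamma target Cxcl9, a chemokine that attracts activated T cells, had levels of 4.31, 5.78, 5.40, 3.66 and 4.82 in TC1 tumours, against 3.96, 6.78 and 9.76 as the lowest, median and highest level in the others (-2.35 ± 0.33, adjusted p = 3.61e-08). TC1 was the lowest family, next to B16, whose tumours overlapped it. The lowest tumours of LL2 (5.38) and Renca (5.67) also lay inside the range of TC1. Of 10 tested interferon gamma targets, 4 were called lower, beside 1.23% of all genes, and none higher. All 10 were below 0, beside 55.9% of all tested genes. TC1 was the lowest family in 5 of the 10, beside 8.88% of all. The guanylate-binding proteins Gbp5 (-1.60 ± 0.25) and Gbp2 (-1.41 ± 0.31) and the GTPase Irgm1 (-1.39 ± 0.31) were the others, and the 4 calls held against the 4 matched-host families. Cxcl10, another such chemokine, differed by -0.35 ± 0.21 and was not called. Of 27 secreted cytokine and chemokine genes, 1 was called higher, Ptgs2, and 2 lower, Cxcl1 and Ccl8, beside 4.44% called over all genes. The list's median was -0.17, and 0.07 against the matched-host families. The chemokine Cxcl1, which attracts neutrophils, averaged 5.16 ± 0.40 in TC1 tumours against 6.87 over the other families (-1.71 ± 0.19). Ccl8 differed by -1.11 ± 0.39 and lost its call without the tumour of animal 20, 23 or 24 (range -1.34 to -0.97) and without P815.

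Of 11 tested genes of MHC class I presentation, 3 were called lower (median -0.68), beside 1.23% of all genes. Psmb8 and Psmb9, the immunoproteasome subunits that interferon gamma induces, averaged 5.96 ± 0.39 and 6.91 ± 0.53 in TC1 tumours against 7.71 and 8.52 over the other families. Erap1, the peptidase that trims antigenic peptides, averaged 5.01 ± 0.36 against 6.41. B2m, the light chain of class I, averaged 10.65 ± 0.19 in TC1 tumours and 10.68 over the other families (-0.04 ± 0.14). The peptide transporter Tap1 differed by -0.71 ± 0.18, below the threshold on size, and H2-K1 and H2-D1 were not measured. Psmb8 also overlapped with B16 and LL2, and only Erap1 was called against LL2 (-1.67). Of 4 class II genes Cd74 was called lower (-1.47 ± 0.28), and against the matched-host families it differed by -0.29 and was not called. Of 9 type I interferon targets none was called (median -0.53).

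**Figure D3:**
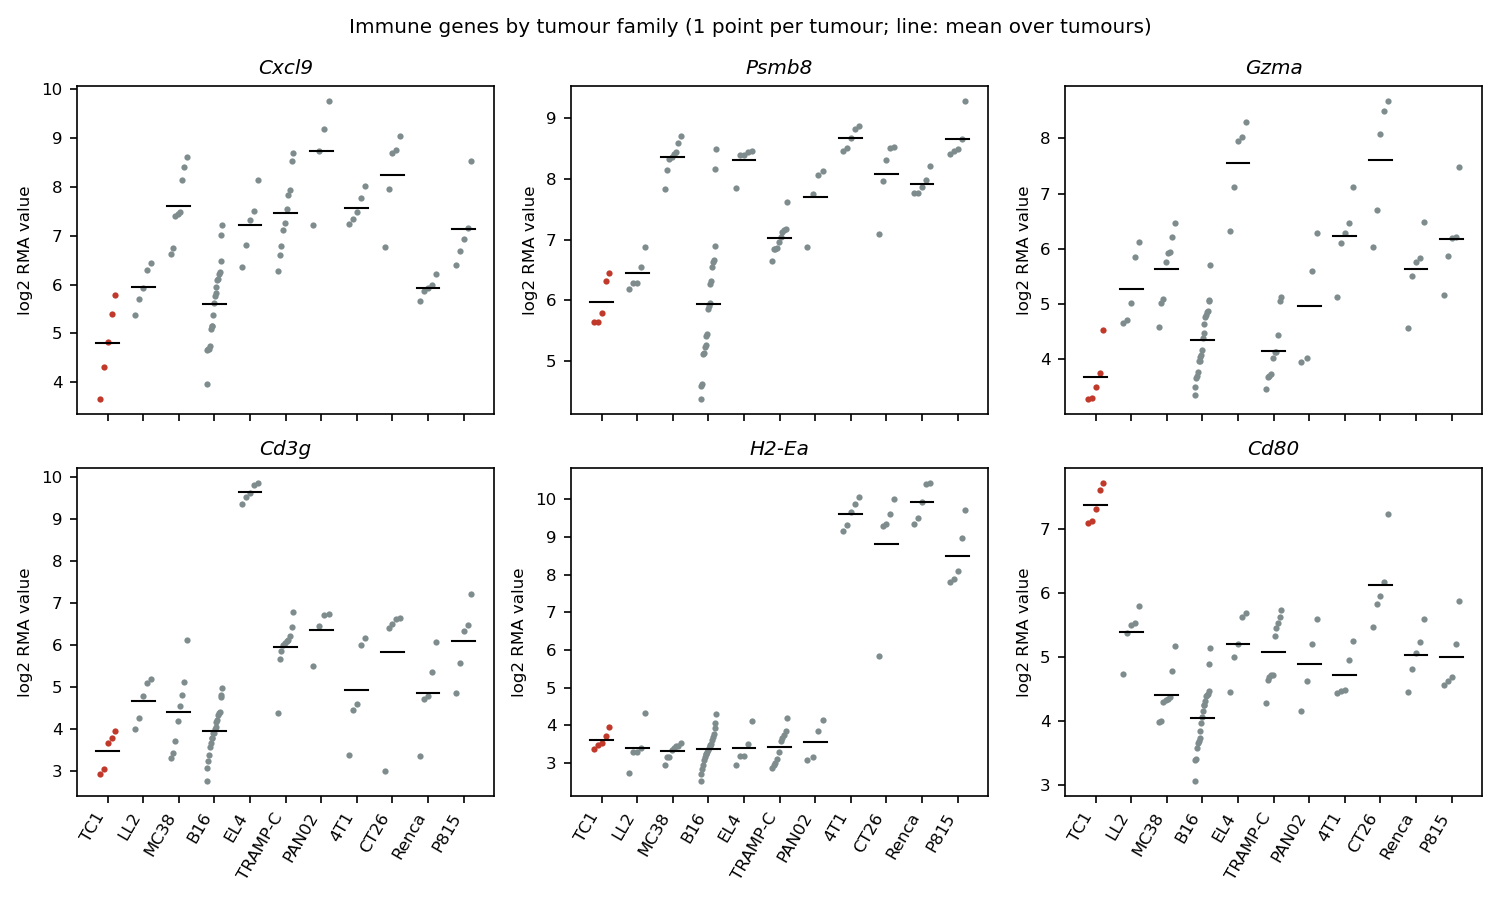
Levels (y axes, log2 RMA value) of 6 immune genes by tumour family (x axis), with 1 point per tumour, TC1 in red and a line at each family's mean. Cxcl9 is lowest in TC1 and B16 and Gzma in TC1, B16 and TRAMP-C, Cd3g is highest in EL4, H2-Ea is low in every C57Bl6j host, and Cd80 is highest in TC1.

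Several lymphocyte markers were lower in TC1. Of 13 T cell genes, 4 were called lower, beside 1.23% of all genes, and TC1 was the lowest of the 11 families in 9, beside 8.88% of all genes. Cd3g, a chain of the T cell receptor complex, had levels of 3.05, 3.80, 2.93, 3.67 and 3.96 in TC1 tumours, against 2.78, 4.85 and 9.86 as the lowest, median and highest level in the others (-2.19 ± 0.36, adjusted p = 1.57e-06). The highest values are those of EL4, a T cell lymphoma, at 9.64 ± 0.21, and without EL4 and P815 the difference was -1.65 and Cd3g was the 1 T cell gene of 13 still called lower (background 1.13%). Cd3d (-1.55), Themis (-1.18) and Cd2 (-1.10) then came to -0.99, -0.94 and -0.92. Cd4 and Cd8a averaged 3.96 and 4.20 in TC1 tumours, and differed by -0.46 and -0.53 without a call. The mean over the list ran from 4.19 to 4.50 in TC1 tumours and from 4.22 to 6.96 in the others, and in the draining nodes of the same animals from 7.44 to 7.65.

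Of 10 NK and cytotoxic genes, 2 were called lower, beside 1.23% of all genes, and all 10 were below 0, beside 55.9% of all. Granzyme A, Gzma, a protease of killer cells, had levels of 3.30, 4.53, 3.28, 3.74 and 3.50 in TC1 tumours, against 3.34, 5.07 and 8.68 as the lowest, median and highest level in the others (-2.08 ± 0.33, adjusted p = 4.98e-07), and granzyme B, Gzmb, differed by -1.58 ± 0.33. Both calls held without EL4 and P815. The family means of TRAMP-C (4.14) and B16 (4.34) lay inside the range of the TC1 tumours for Gzma. Perforin, Prf1, differed by -0.40 ± 0.17 and was not called.

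Among neutrophil genes 3 of 11 were called lower, beside 1.23% of all genes. They were S100a9 (-1.68 ± 0.40), S100a8 (-1.36 ± 0.38) and the chemokine receptor Cxcr2 (-1.08 ± 0.25). Against the matched-host families S100a9 alone was called (-1.26), with S100a8 at -0.96 and Cxcr2 at -0.45. Cxcr2 is high in P815, a mastocytoma, at 9.53, and its call was lost without P815 and without the tumour of animal 20 or 23 (range -1.23 to -0.98). Macrophage genes gave 0 calls of 14, although all 14 were below 0 (median -0.39), beside 55.9% of all tested genes. Csf1r was at 6.49 ± 0.16 in TC1 tumours and 6.54 over the other families. Against the matched-host families the macrophage median was 0.18. Against LL2 3 of the 14 were called lower, beside 1.91% of all genes. Dendritic, B and plasma cell, endothelial, skeletal muscle, keratinocyte, adipocyte and erythroid lists gave 0 calls, with medians from -0.40 to 0.26. The mean of the muscle list varied most within TC1, at 6.46, 5.89, 6.80, 5.41 and 7.12 in animals 19, 20, 22, 23 and 24, and its part in other results was not tested.

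Cd80, the ligand that stimulates T cells through CD28 and restrains them through CTLA4, was higher in TC1. It had levels of 7.31, 7.72, 7.13, 7.61 and 7.10 in TC1 tumours, against 3.07, 4.69 and 7.24 as the lowest, median and highest level in the others. CT26 was the next family at 6.13 ± 0.67, and the highest other tumour lay inside the range of TC1. The difference was 2.38 ± 0.22 (adjusted p = 2.45e-14), and it was not called with family means as units (adjusted p = 0.208). In the TC1 nodes Cd80 averaged 5.29 ± 0.37. The related ligand Cd86 differed by -0.22. Of 13 checkpoint genes Lgals9 was the other call, beside 4.44% called over all genes. Lgals9 differed by -1.16 ± 0.14, with levels of 6.14, 7.30, 6.58, 6.14 and 6.98 in TC1 tumours. Cd274, the ligand PD-L1, averaged 4.93 in TC1 tumours and 5.59 over the other families and was not called.

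Within TC1 the tumour of animal 20 stood higher for interferon genes. The mean over the type I interferon list was 5.12, 6.00, 5.08, 5.04 and 5.54 in animals 19, 20, 22, 23 and 24, and that over the interferon gamma list was 5.25, 5.82, 5.22, 5.12 and 5.53. The same tumour had the highest level of Cxcl9, Psmb8, Psmb9, Gzma, Gzmb and Cd80 of the 5. The interferon gamma list mean in animal 20 was inside the range of the other tumours, which ran from 4.72 to 7.72.

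Of the 15 genes farthest below the other families, 4 were not called against the matched-host families. H2-Ea, a class II chain that C57BL/6 mice do not make, averaged 3.61 ± 0.24 in TC1 tumours, against 9.93 in Renca. The difference of -2.13 ± 0.28 became 0.24 (adjusted p = 0.639) against the matched-host families. Ifi202b, an interferon-inducible gene that is also strain dependent, averaged 2.60 in TC1 tumours, and its difference of -2.01 became -0.01. Tspan8, a tetraspanin, was at 3.69 in TC1 tumours and 10.52 in PAN02, and its difference of -2.28 became -0.11 against the matched-host families. Serpinb6b, a protease inhibitor that reached 8.53 in TRAMP-C, had a difference of -1.87, which became -0.75 and was no longer called.

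The genes that were also lower against the matched-host families included Ezr. Ezrin, which ties the cell membrane to actin, had levels of 6.06, 5.85, 5.59, 5.17 and 5.47 in TC1 tumours, against 6.06, 7.49 and 8.93 as the lowest, median and highest level in the others (-2.05 ± 0.15, adjusted p = 2.09e-19). Casp1, the protease that activates interleukin-1, averaged 4.31 ± 0.36 in TC1 tumours against 6.59 over the other families. B16 tumours overlapped TC1 for Casp1 and reached lower, from 2.50 to 4.63, and the lowest P815 tumour (4.54) also lay inside the range of TC1. The glutathione transferase Gsta4 averaged 4.70 ± 0.43 in TC1 tumours against 7.03. The transcription factor Nfia averaged 4.81 ± 0.27 in TC1 tumours against 6.71, and TC1 was the lowest family. Tgtp1, a GTPase induced by interferon gamma with a near-identical copy that its probes may also read, differed by -2.14 ± 0.48. Gpnmb, a melanosome protein, was at 4.49 in TC1 tumours and 10.72 in B16, and differed by -2.69 from the matched-host families, of which B16 is 1. Elovl7, a fatty acid elongase, differed by -1.93 ± 0.43 with B16 at 7.99. Mkrn1, a ubiquitin ligase, had levels of 5.52, 5.42, 5.90, 5.58 and 6.10 in TC1 tumours, all below the lowest other tumour at 6.16, and the fatty acid ligase Acsl5 averaged 6.31 against 7.63.

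LL2, the other lung line, grew in the same strain, sex and site, which makes it the nearest match. Between TC1 and LL2 tumours 701 of 13746 genes were called (5.10%), 438 higher in TC1 (3.19%) and 263 lower (1.91%). Of the 441 genes called higher against the families, 261 were also called higher against LL2, 59.2% of the first set and 59.6% of the second. On the lower side 60 genes were shared, 35.5% of the first set and 22.8% of the second, and both comparisons use the same TC1 tumours and LL2. The genes farthest above LL2 were Neto2 (6.36), Sox2 (5.54), Mgp (5.53), Itgbl1 (5.42), Tafa1 (4.61) and Slit2 (4.52), a guidance cue at 8.78 in TC1 tumours and 4.26 in LL2 that was equally high in CT26 (8.92).

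On the lower side, Egln3 ranged from 3.60 to 4.77 in TC1 tumours and from 8.10 to 9.24 in LL2 tumours (-4.15, adjusted p = 4.88e-14). The elastase Mmp12 ranged from 4.03 to 5.77 in TC1 tumours and from 8.15 to 9.98 in LL2 tumours. The amino acid transporter Slc38a4 (-3.98), the retinol carrier Rbp4 (-3.84), dermatopontin, Dpt (-3.79), and the proteoglycan Vcan (-3.79) completed the 6 lowest. The groups did not overlap in any of these 6 genes. Rbp4 and Vcan were not called against the mean of the families, and LL2 was the highest family in both (7.98 and 9.24). The calls of Slc38a4 and Dpt against the families were lost without LL2, PAN02 or TRAMP-C, and without the tumour of animal 24 (Slc38a4, -0.98) or 23 (Dpt, -0.95). Lung epithelium again gave 0 calls of 13 against LL2, and Krt18 was lower in TC1 (4.27 ± 0.29 against 7.56 ± 0.15, SD, n = 5 each). Interferon gamma targets and T cell genes gave 0 calls against LL2, with medians of -0.52 and -0.30, beside -0.03 over all genes, of which 53.7% were below 0.

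Genes on the X chromosome were called higher more often than those of any autosome. Of 426 tested X-linked genes, 46 (10.8%) were called higher in TC1 and 2 lower, beside 3.21% over all chromosomes. Chromosome 3 came next with 43 of 663 (6.49%) and chromosome 4 with 38 of 842 (4.51%). The median difference of X-linked genes was 0.21, whereas in the same contrast made for each other family it lay between -0.16 and 0.09. Against the matched-host families 53 X-linked genes (12.4%) were called higher, beside 3.80% of all. This pattern was chosen after the values were seen and the share has no test of its own.

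In each TC1 tumour the X-linked median stood above the autosomal one, by 0.23, 0.29, 0.30, 0.35 and 0.27 in animals 19, 20, 22, 23 and 24. The other tumours ran from -0.18 to 0.19 with a median of -0.03, so the groups did not overlap. In the nodes of the TC1 animals the value lay between -0.02 and 0.03 and in their spleens between -0.04 and 0.06. Kdm6a, an X-linked demethylase of histone H3, had levels of 6.98, 6.89, 7.42, 7.57 and 7.15 in TC1 tumours and at most 6.77 in any other (1.12 ± 0.15, adjusted p = 1.61e-08), and was called with family means as units. Against LL2 it differed by 1.00 and was not called.

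**Figure D4:**
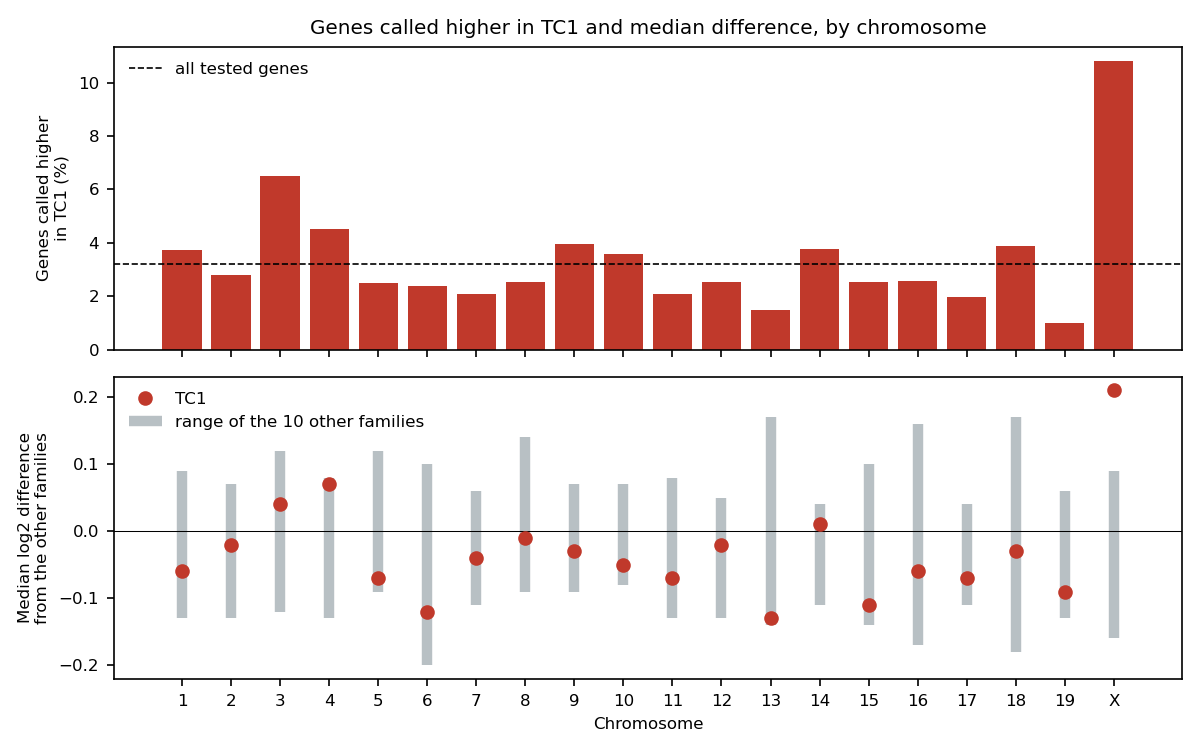
By chromosome (x axis), the percentage of tested genes called higher in TC1 tumours (upper panel, bars, with a dashed line at 3.21% for all genes) and the median log2 difference of TC1 from the other families (lower panel, red points, with grey bars for the range of the 10 other families in the same contrast). The X chromosome has the highest bar, at 10.8%, and is where TC1 lies outside the range of the other families.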

How the data were processed

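The authors deposited log2 expression values of 17831 probe sets on 283 Affymetrix mouse exon arrays, made with RMA per the submitters' processing notes. RMA subtracts background, equalises the arrays' distributions and summarises probes, which can hide a change shared by most genes and shrinks differences of weak genes. For its version and genome build, nothing is stated: not given in the sources used here. Probe sets with 1 symbol (15620) were used, and for 375 genes with several the one of highest mean, which left 15224 genes. Genes above 4.3 (the 25th percentile) in at least 4 of the 77 tumours were tested.

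One limma 3.58.1 fit (R 4.3.3, lmFit and eBayes, two-sided) gave 15 group means, and TC1 was set against the mean of 10 families. Calls needed a Benjamini-Hochberg adjusted p under 0.05 over all 13746 genes and a difference of at least 1. Each tumour came from its own animal. The model was also run on values simulated from the group means and the spread between tumours of a model. It recovered 99 of 100 planted differences of 1.5 and 100 of 100 of 2.0, with 2 false calls. As TC1 was placed at the family mean before planting, this run cannot address the spread between families. Promoters and positions are RefSeq's (GRCm38.p6).

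Named genes were the 15 highest and 15 lowest called, the 10 widest gaps each way, the 6 highest and lowest against LL2, 5 genes like each marker, and members of 34 lists, of which 423 of 499 genes were measured. Predicted genes, receptor segments and small RNAs entered the counts without being named. Members, lists and tests were chosen with earlier results of these data known, and 5 further lists after the values were seen. Tables were made in Python 3.11.15. Alternatives are in the closing section.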

Additional observations from a re-analysis of the deposited data

Results flagged for a closer look

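For each of 122 genes named by rule or called within a list, the highest and lowest of the 5 TC1 tumours were compared with the rest, and a tumour was picked out where its gap to the nearest other exceeded 0.71 of the group's range. This happened for 9 genes, and chance picks out about 1 in 20 groups. The tumour of animal 20 was the lowest for Egln3 (3.60), Mmp12 (4.03) and Thy1 (9.09). That of animal 19 was the lowest for Cdkn2b (6.26) and Rdh10 (7.78), and that of animal 24 the lowest for Hoxb2 (5.59). The tumour of animal 23 was the highest for Gpr149 (7.14) and Pde3b (8.93), and that of animal 22 the highest for Stag3 (8.10). The calls of these 9 genes did not change when any 1 TC1 tumour was left out.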

How the results depend on the processing

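The count of 610 called genes lay between 546 and 716 under the alternatives of normalization, filter, probe set, spread, weights and reference families, with 1 exception. With family means as units, 31 genes were called, 31 higher and 0 lower. Leaving out 1 tumour at a time gave 587 to 648 calls (434 to 460 higher, 153 to 188 lower), and, over the TC1 and LL2 tumours, 672 to 717 against LL2 (425 to 450 higher, 245 to 273 lower). Leaving out LL2 tumours was chosen after seeing the data. The animal number as a replicate block, which labels single animals and pairs no tumours, gave 610 calls at a correlation of 0.011. Of the genes named by rule, H2-Ea reversed to 0.24 against the C57Bl6j female subcutaneous families. Of 57 such genes, 39 were no longer called with family means as units, which tests 1 TC1 value against 10. The rest did not all stay called, as they include genes not called in the main fit, such as Rbp4 and Vcan. Of the calls against the families, 87.3% of the higher and 54.4% of the lower were also called against the matched-host families. The number of TC1 tumours, 5 from 1 line, limits the precision.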
